A study of Mus musculus with 11 samples.

Results

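TXNDC5 knock-in cells (KI) were compared with wild-type cells (WT) of AML12, a line of mouse hepatocytes, across every gene that was expressed. The libraries were chosen by their genotype label, which gave 7 of the 11 libraries of the series, 4 of KI (5, 6, 7 and 8) and 3 of WT (5-6, 7 and 8). The KI cells carry a TXNDC5 construct placed in the ROSA26 locus, a site used for insertion because it is open in most cells, to overexpress the protein. The WT cells are AML12 without an edit, and both groups share the line and received no treatment that the labels name. The promoter, sequence and species of the inserted copy, and whether the KI line is 1 clone, are not given in the sources used here, nor is the meaning of the label 5-6. Nothing states that the libraries of a group came from separate cultures, so p-values measure the spread between these libraries, which may be technical.

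TXNDC5, also called ERp46, is a protein disulfide isomerase of the endoplasmic reticulum (ER). These enzymes carry thioredoxin-like domains and pass disulfide bonds to newly made secreted and membrane proteins, and they are themselves reoxidized by ER oxidases such as ERO1 and by the peroxiredoxin PRDX4. Hepatocytes send large amounts of plasma proteins through this route, and an overloaded ER switches on chaperones and export of misfolded proteins through the unfolded protein response.

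Polyadenylated RNA was counted as reads per gene, with 32360709 to 35335070 counts in the KI libraries and 29840366 to 30364098 in WT. Levels below are CPM, counts per 1000000 counts of a library, after TMM scaling, a correction for differences in RNA composition. The 7 libraries fell apart by genotype, and the first principal component, with 64.5% of the variance, separated KI from WT. A newly assembled entry without annotation took 4.82 to 9.12% of the counts in KI and 11.3 to 17.1% in WT. Hepatocyte markers were present, with *Alb*, *Ttr* and *Hnf4a* counted in every library, and 8 of the 10 passed the filter on low counts. Of the 7 endothelial and 6 lymphocyte markers none had enough reads to be tested, and their summed level reached at most 0.401 and 0.156 CPM in any library. Of the 9 stellate cell and fibroblast markers only *Col1a1* was tested, at a summed level of at most 1.79 CPM for the whole list. Of the 8 macrophage markers 3 were tested and 4 were at 0 throughout. *Cd14*, a lipopolysaccharide co-receptor that hepatocytes also make, was lower in KI, and so was *Cd68*. Of the 5 tested cholangiocyte markers 1 was called, *Krt7*, and it was lower. With library totals the calls of *Krt7* and *Cd14* were lost (log2 −0.26 and −0.19). No marker of another cell type was called higher in KI with TMM.

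*Txndc5* itself was counted 5654, 6511, 6723 and 5344 times in KI 5, 6, 7 and 8 and 3299, 3429 and 4046 times in WT 5-6, 7 and 8. On the scaled level these were 150.1, 171, 167 and 153 CPM in KI and 138, 134 and 135 CPM in WT. All 4 KI libraries lay above all 3 WT libraries by a narrow margin, and 44.6% of all tested genes had groups that did not overlap. The difference was 1.18-fold (log2 0.24 ± 0.12 SE), which did not pass the threshold (edgeR adjusted p = 0.136). With counts scaled to the library totals in place of TMM the log2 difference was 0.57 and passed it (edgeR adjusted p = 0.00623), and in the other alternatives it stayed between 0.21 and 0.27 and did not pass. In the 4 TXNDC5 knock-out (KO) libraries of the same series the gene had 364, 287, 430 and 408 counts, so KI and WT were both far above KO. Whether reads of the inserted copy are counted under the mouse gene cannot be told from these files. Of 4 tested genes near the ROSA26 locus 2 fell and none rose, where 21.0% of all tested genes were called lower. Scaled to library totals 1 was lower, and with the trend over transcript length removed 4 were. The larger fall was that of *Lhfpl4*, named after its value was seen, with 2, 0, 13 and 8 counts in KI and 35, 19 and 90 in WT (log2 −3.09, edgeR adjusted p = 0.00481). *Thumpd3* and *Setd5*, which flank the ROSA26 locus, did not pass the test (log2 −0.36 and −0.25), and *Mtmr14*, a phosphoinositide phosphatase gene near by, was 1.47-fold lower, a call that was lost without KI 5, KI 7, WT 5-6 or WT 7 (log2 −0.57 to −0.33) and with library totals (−0.20). *Thumpd3* was called lower without WT 8 (log2 −0.51), with DESeq2 (−0.38) and with the length trend removed (−0.40), and so was *Setd5* in the last of these (−0.39). Of the 7 tested neighbours of the *Txndc5* gene on chromosome 13, *Snrnp48* and *Slc35b3* fell and the other 5 did not pass. That is 28.6% of them, near the 21.0% of all tested genes called lower. Both calls were lost with library totals (log2 −0.37 each), which gave 1 neighbour higher and 0 lower.

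**Figure D1:**
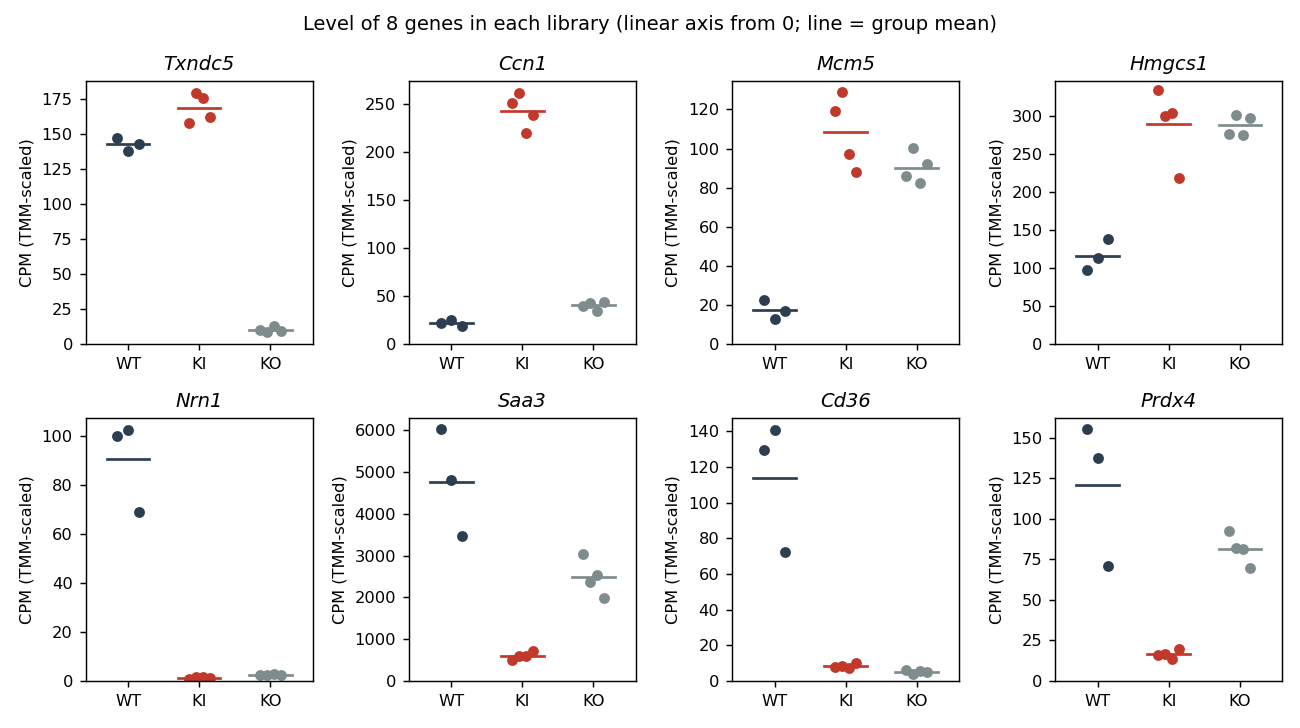
Level of 8 genes in every library, in CPM after TMM scaling over all 11 libraries, on linear axes that start at 0; points are libraries and lines group means (WT n = 3, KI n = 4, KO n = 4). *Txndc5* is only slightly higher in KI than in WT and near the bottom of the axis in KO, while *Ccn1*, *Mcm5* and *Hmgcs1* are higher and *Nrn1*, *Saa3*, *Cd36* and *Prdx4* lower in every KI library than in any WT library. The KO means of *Mcm5*, *Hmgcs1*, *Nrn1* and *Cd36* (90.2, 287, 2.56 and 5.21 CPM) lie nearer to KI than to WT. Those of *Ccn1*, *Saa3* and *Prdx4* (40.4, 2486 and 81.5 CPM) lie between the means of KI and WT.

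Against this small difference in *Txndc5*, a large part of the transcriptome differed. Of 13534 genes tested, 5722 (42.3%) passed an adjusted p of 0.05 in edgeR's quasi-likelihood test, and "rose" and "fell" below refer to such calls. The calls divided into 2874 higher in KI (21.2% of the genes tested) and 2848 lower (21.0%), with a median size of 1.73-fold and 1.87-fold. At a log2 fold change beyond 1 there were 944 genes higher and 1265 lower, and beyond 2 there were 216 higher and 396 lower. The median gene stood at −0.02 on the log2 scale. The division depends on the scaling, since library totals placed the median gene at 0.30 and gave 4620 genes higher and 1438 lower, 76.3% of the calls on the higher side against 50.2% with TMM. The shares of all tested genes, 21.2% higher and 21.0% lower, are the background for the gene lists below, and each list is described by its counts and by its median log2 fold change.

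The 12 largest rises among well expressed genes ran from 6.13- to 15.1-fold. *Ccl7*, a chemokine that attracts monocytes, rose 15.1-fold, from 2.46 ± 1.00 CPM in WT to 37.6 ± 3.48 CPM in KI (mean ± SD, n = 3 and 4). *Ccn1*, which encodes a matrix-associated signalling protein and is a classical target of the transcriptional coactivator YAP, rose 11.1-fold. *Col12a1*, a collagen chain that decorates fibrils, *Pcolce2*, an enhancer of procollagen processing, and *Tnc*, the matrix glycoprotein tenascin C, rose 7.98-, 7.10- and 6.13-fold. *Vgll3*, a cofactor of TEAD transcription factors, rose 7.67-fold. *Cdc6* and *Mcm5*, both needed to license replication origins, rose 7.20- and 6.22-fold. The other 4 were *Padi1*, a peptidylarginine deiminase (8.63-fold), *Ly6a*, the surface protein SCA-1 (8.63-fold), *Trpa1*, an ion channel (7.58-fold), and *Dpysl3*, a cytoskeletal regulator (7.08-fold).

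The largest falls among well expressed genes ran from 13.4- to 68.5-fold. *Nrn1*, the membrane-anchored neuritin, was at 94.0, 99.1 and 65.2 CPM in the WT libraries and at 0.903, 1.34, 1.37 and 1.18 CPM in KI, a 68.5-fold difference. *Sftpd*, a collectin that binds microbial sugars, fell 38.2-fold, and *Pglyrp1*, a peptidoglycan recognition protein, 21.9-fold. *Lrg1* and *Serpina3n*, both acute phase genes of the liver, fell 17.7- and 14.7-fold. *Gpx3*, the secreted glutathione peroxidase, and *Gstp3*, a pi class glutathione S-transferase, fell 17.9- and 13.4-fold. *Cd36*, the fatty acid translocase, fell 13.6-fold, from 109 ± 35.9 to 7.92 ± 1.03 CPM. Further falls were those of *Ltb*, a cytokine of the TNF family (19.7-fold), *Gda*, guanine deaminase (16.0-fold), and *Iqgap2*, a scaffold protein rich in liver (13.5-fold).

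Among the 10 genes with the most reads that were called without overlap, *Krt8*, a keratin of simple epithelia, and *Eno1*, a glycolytic enzyme, rose by 0.62 and 0.68 on the log2 scale. The other 8 fell. *Tpt1*, a translationally controlled protein, was at 4860.1, 5180.1, 4529 and 6581 CPM in KI and at 19045, 18560.1 and 10381 CPM in WT, a 3.03-fold difference in which WT 8 stood nearest to KI. *Fth1*, the ferritin heavy chain, fell 1.77-fold, *Lamp2*, a lysosomal membrane protein, 1.81-fold and *Pgk1*, a glycolytic kinase, 2.00-fold. The remaining 4 were the ribosomal protein genes *Rps3*, *Rpl7* and *Rplp0* and the glycolytic isomerase gene *Tpi1*, with log2 changes of −0.89, −1.59, −0.54 and −0.52. Without WT 7 the calls of *Krt8*, *Eno1* and *Tpi1* were lost (log2 0.59, 0.57 and −0.59), and without WT 5-6 those of *Rplp0* and *Tpi1* (−0.39 and −0.28). *Krt8* also lost its call without KI 6, *Rplp0* without KI 5 or 7, and *Tpi1* without KI 5, 6 or 7. With library totals *Rplp0* and *Tpi1* lost theirs (−0.20 and −0.17).

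The relatives of TXNDC5 and its partners in the ER did not rise with the knock-in as a group. Of 17 tested protein disulfide isomerases, a list that includes *Txndc5* itself, 1 rose and 6 fell, with a median of −0.15. With library totals 2 rose, *Txndc5* among them, and 5 fell, with a median of 0.19. *P4hb*, the founding member of the family, was at 742, 751, 744 and 782 CPM in KI and 1160.0, 1334 and 1484 CPM in WT, and fell 1.76-fold (edgeR adjusted p = 0.00088). *Dnajc10*, a disulfide reductase that assists ER-associated degradation, fell 2.41-fold, and *Txndc16* and *Tmx4* fell 2.29- and 2.28-fold at low levels. *Pdia3*, which folds glycoproteins together with calnexin, was at 634 ± 43.8 CPM in KI and 634 ± 50.5 CPM in WT. The only member that rose was *Pdia5*, named after its value was seen, 1.80-fold.

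Of 13 tested ER oxidases and thiol partners 2 rose and 3 fell with TMM, and 5 rose and 2 fell with library totals. *Ero1a*, the main ER oxidase induced by hypoxia, was at 138, 120.1, 143 and 104 CPM in KI and 503, 502 and 510.5 CPM in WT, 4.00-fold lower (edgeR adjusted p = 1.19e-06). *Prdx4*, which uses hydrogen peroxide to make disulfides in the ER, was at 15.2, 16.0, 13.0 and 18.3 CPM in KI and 146, 133 and 66.9 CPM in WT, 7.34-fold lower. The groups stood well apart for both genes. *Qsox1*, a sulfhydryl oxidase of the secretory pathway, was at 116 ± 7.51 CPM in KI and 146 ± 7.58 CPM in WT and did not pass (log2 −0.32). It was called lower with DESeq2 size factors, with DESeq2 and without newly assembled entries (−0.35 each), with all 11 libraries in 1 fit (−0.32) and with the length trend removed (−0.41), and was at 0.00 with library totals. The larger rise, at 2.51-fold, was that of *Mia2*. It was in this list though it is a cargo receptor for export of collagen and lipoprotein from the ER, not an oxidase.

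Of 22 tested ER lumen chaperones, 3 rose and 8 fell, with a median of −0.13 (4 and 5 with library totals, where the median was 0.20). The number that rose was 0 without KI 6 and 5 without WT 8. *Hspa5* (BiP), the ER HSP70, fell from 1652 ± 293 to 978 ± 103 CPM, 1.69-fold, and *Hsp90b1*, the ER HSP90, 1.62-fold. *Dnajc3*, a cochaperone of BiP, and *Sdf2* fell 1.74- and 1.88-fold. *Canx*, calnexin, was at 605 ± 74.0 CPM in KI against 467 ± 27.0 CPM in WT and did not pass (edgeR adjusted p = 0.0609), though it did without KI 8 or WT 8 (log2 0.46 and 0.42), with library totals (0.70), with DESeq2 (0.35) and with all 11 libraries in 1 fit (0.38). In the list of 26 unfolded protein response genes 3 rose and 7 fell with TMM, whereas 8 rose and 3 fell with library totals and 6 rose without WT 8. *Xbp1*, a transcription factor of this response, fell 1.47-fold, *Edem2*, which trims mannose from misfolded glycoproteins, 2.41-fold and the pseudokinase gene *Trib3* 2.17-fold. The call of *Xbp1* was lost with library totals (log2 −0.21). The 23 ATF4 targets went both ways, with 9 higher and 6 lower (11 and 4 with library totals). *Phgdh*, the first enzyme of serine synthesis, rose 2.21-fold while *Psat1*, the next enzyme of the same pathway, fell 2.03-fold, and *Pycr1*, of proline synthesis, fell 2.39-fold.

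Genes of cell division rose together. Of 44 genes of cell cycle and replication, all tested, 37 (84.1%) rose and 1 (2.27%) fell, with a median log2 fold change of 1.05, against a median of −0.02 for all genes. Library totals gave 41 and 1, and leaving out any library gave 36 to 38 and 1. *Mcm5* was at 113, 122, 92.5 and 83.0 CPM in KI and at 21.0, 12.5 and 15.9 CPM in WT, and its log2 change was 2.64 ± 0.21 SE (edgeR adjusted p = 1.89e-06). *Mcm2*, of the same helicase that opens DNA ahead of the replication fork, rose 4.49-fold, and *Ccne1*, cyclin E1 of the step into S phase, 4.86-fold. *Ccnd1*, cyclin D1 of G1 phase, was at 787, 793, 743 and 632 CPM in KI against 293, 345 and 365 CPM in WT, *Cdk4*, its kinase, rose 1.89-fold, and *Pcna*, the sliding clamp of DNA polymerase, 1.53-fold. Genes of G1, S and M phase were all among the 37, and their rises ran from 0.61 to 2.64 on the log2 scale. The cell cycle inhibitors *Cdkn2a* and *Cdkn2b* also rose (log2 0.67 and 0.78), and the transcription factor gene *E2f1* was the member that fell (−0.75). These 3 were named after their values were seen. Scaled over all 11 libraries, the mean of *Mcm2* was 99.1 CPM in KO, 112 in KI and 24.9 in WT. *Ccnd1* was at 814, 779 and 352 CPM in the same order, and *Cdkn2a* at 1.51, 59.9 and 37.6 CPM. KO was not tested against WT here.

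E2F factors bind next to the start of many replication genes, and the promoter windows of RefSeq (GRCm38.p6, 250 bases before to 50 after each start) were searched on both strands for the 8-letter forms TTTCCCGC and TTTGGCGC. Of the 37 genes of the cell cycle list with a window, 9 (24.3%) held a match. It was in 9 of their 42 windows, against 1.56% of all 32851 windows. By gene, the match was found in 8 of the 30 that rose and in 1 of the other 7. *Mcm2* had a window without a match. *Mcm5*, *Mcm6* and *Mcm7* encode parts of the same helicase and rose by 2.64, 1.32 and 1.02 on the log2 scale. Stretches of 90 bases before their starts are shown because they hold a match. They lie at chr8:75109319-75109408 (plus strand), chr1:128359706-128359795 (minus) and chr5:138172000-138172089 (minus) of GRCm38.p6, written 5′ to 3′ along the gene, with the match in capitals, beginning 149, 47 and 165 bases before the start. A match is a run of letters and does not show that a factor was bound in these cells. *Mcm6* and *Mcm7* were named for this purpose, outside the rule for named genes.
Mcm5: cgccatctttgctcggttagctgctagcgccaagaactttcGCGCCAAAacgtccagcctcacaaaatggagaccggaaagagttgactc
Mcm6: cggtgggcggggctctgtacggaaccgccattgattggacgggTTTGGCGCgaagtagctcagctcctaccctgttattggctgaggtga
Mcm7: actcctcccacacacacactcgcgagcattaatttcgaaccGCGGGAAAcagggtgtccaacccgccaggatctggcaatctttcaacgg

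Genes of cholesterol synthesis also rose. Of 29 tested genes 19 (65.5%) rose and 2 (6.90%) fell, with a median of 0.62, and library totals gave 23 and 2. *Hmgcs1*, which makes HMG-CoA for the mevalonate pathway, was at 316, 284, 289 and 205 CPM in KI and 91.7, 109 and 129.8 CPM in WT, 2.48-fold higher (edgeR adjusted p = 0.000119). *Cyp51* and *Hsd17b7*, of the later steps from lanosterol to cholesterol, rose 1.88- and 2.35-fold. *Srebf2*, the transcription factor gene that drives this pathway, was at 279 ± 13.1 CPM in KI and 256 ± 43.4 CPM in WT and did not pass, nor did *Msmo1* (log2 0.30) except without WT 5-6 (0.53) and with library totals (0.65). The members that fell were *Abca1*, which exports cholesterol from the cell, 4.71-fold lower, and *Insig2*, named after its value was seen, which holds SREBP in the ER, 2.09-fold lower. The sterol response element was searched as TCACNCCAC on both strands. It was in 1 of the 26 windows of the 20 genes of the list that have one, that of *Hmgcs1*, and in 1.24% of all windows. The *Hmgcs1* stretch is shown for that reason, from chr13:119690173-119690262 of GRCm38.p6 (plus strand), with the element, which begins 137 bases before the start, in capitals.
Hmgcs1: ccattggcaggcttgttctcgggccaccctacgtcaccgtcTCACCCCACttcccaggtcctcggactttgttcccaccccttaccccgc

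Genes for the use of fatty acids were lower. None of 39 tested genes of fatty acid uptake and oxidation rose and 19 (48.7%) fell, with a median of −0.37. With library totals 6 rose and 10 fell and the median was −0.04. The number that fell was 11 without WT 7 and 22 without WT 8. *Cd36* was at 7.35, 8.05, 6.96 and 9.32 CPM in KI and 121, 136 and 68.0 CPM in WT, so that the lowest WT library was still several-fold above the highest of KI. *Acox2*, the peroxisomal oxidase of branched chains and bile acid precursors, fell 5.26-fold, *Eci2*, an enoyl-CoA isomerase, 3.15-fold, and *Fabp5*, a fatty acid binding protein, 2.66-fold. *Acsl4* and *Acsl5*, which activate fatty acids, did not pass (log2 −0.31 and 0.15). *Acsl4* was called lower without WT 8, with all 11 libraries in 1 fit (−0.31 each), with DESeq2 (−0.34) and with the length trend removed (−0.44), and *Acsl5* higher with library totals (0.48). Among 28 genes of fatty acid synthesis and lipid droplets 7 rose and 6 fell (9 and 4 with library totals). *Elovl6* and *Fasn*, which build and extend palmitate, rose 3.05- and 2.07-fold, while *Cideb*, a lipid droplet and lipoprotein protein of hepatocytes, fell 2.74-fold, and *Plin2*, which coats lipid droplets, was at 723 ± 42.3 CPM in KI and 705 ± 168 CPM in WT and was called higher with library totals alone (log2 0.39).

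**Figure D2:**
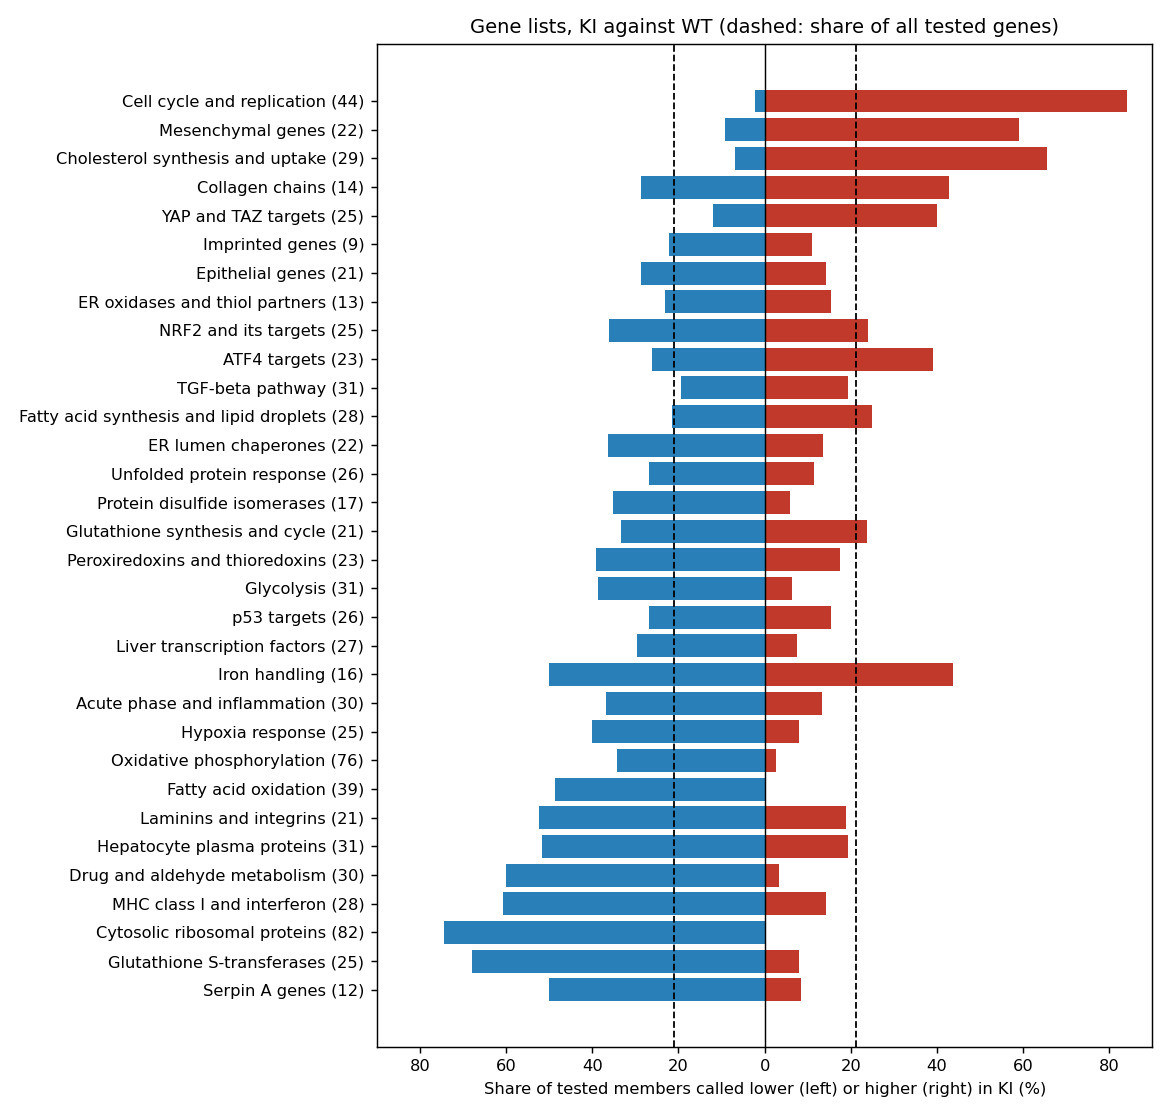
Share of the tested members of each gene list that was called higher (right) or lower (left) in KI, in percent, with the number of tested members in parentheses and lists ordered by median log2 fold change; dashed lines are the shares of all tested genes, 21.2% and 21.0%. Cell cycle, cholesterol and mesenchymal lists lie on the higher side, and serpin, glutathione S-transferase, ribosomal and interferon lists on the lower side. Scaled to the totals alone, the calls of oxidative phosphorylation, unfolded protein response, NRF2, glutathione cycle, ER oxidase, acute phase, epithelial, p53 and imprinted lists lay more on the higher side.

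YAP and TAZ are coactivators that report cell spreading and density. In a list that holds their targets and also parts of the pathway itself, more genes rose than fell. Of 25 tested, 10 (40.0%) rose and 3 (12.0%) fell, with a median of 0.33, and library totals gave 13 and 1. The largest called change of the list was a fall, at log2 −3.89 against 3.47 for the largest rise. It was in a member below the level set for named genes. *Ccn1* was at 238, 249, 210.0 and 225 CPM in KI and 20.8, 24.0 and 17.5 CPM in WT. *Ankrd1*, a muscle and stress repeat protein, was at 659.9, 673, 624 and 621 CPM and 197, 187 and 141 CPM, 3.69-fold higher. *Ccn2*, a relative of CCN1, *F3*, tissue factor, and *Axl*, a receptor tyrosine kinase, rose 2.52-, 3.90- and 1.62-fold, with no overlap of KI and WT for any of them. The letters GGAATG, bound by TEAD factors, were found in 11 of 20 genes of the list, 5 of the 9 that rose and 6 of the other 11. They were in 13 of the 24 windows of the 20 genes and in 14.7% of all windows. Those of *Ccn1* (chr3:145650041-145650130, minus strand) and *Ankrd1* (chr19:36119920-36120009, minus strand) of GRCm38.p6 are shown because these are classical targets with a match, which begins 103 and 123 bases before the start and is in capitals.
Ccn1: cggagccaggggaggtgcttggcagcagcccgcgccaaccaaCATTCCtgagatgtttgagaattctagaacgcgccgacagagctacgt
Ankrd1: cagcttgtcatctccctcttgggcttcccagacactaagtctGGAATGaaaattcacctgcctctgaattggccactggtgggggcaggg

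Mesenchymal genes rose in 13 of 22 tested (59.1%) and fell in 2, with a median of 0.64, and library totals gave 13 and 0. *Tnc*, *Zeb2*, a repressor of E-cadherin, and *Postn*, the matrix protein periostin, rose most, *Zeb2* from 2.45 ± 0.130 to 7.94 ± 0.801 CPM and *Postn* 2.74-fold, all at low levels. *Fn1*, fibronectin, and *Vim*, vimentin, did not pass (log2 −0.30 and −0.05), though *Fn1* was called lower with the length trend removed (−0.42). Of the 21 epithelial genes tested, 3 rose and 6 fell with TMM, and 6 rose and 4 fell with library totals, while 1 rose without WT 7 and 5 without WT 8. *Krt8* and *Krt18*, partner keratins of hepatocytes, rose 1.53- and 1.81-fold and *Cgn*, the tight junction protein cingulin, 2.12-fold. *Tjp3*, another tight junction gene, and *Pkp2*, of desmosomes, fell 3.72- and 2.28-fold. Without WT 7 the calls of *Krt8* and *Krt18* were lost (log2 0.59 and 0.70).

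Matrix genes went both ways. Of 14 collagen chains tested, 6 rose and 4 fell (8 and 2 with library totals). *Col12a1* was at 93.4, 78.5, 116 and 83.4 CPM in KI and 8.20, 12.2 and 14.3 CPM in WT, and *Col4a1* and *Col4a2*, the common chains of basement membranes, rose 2.16- and 1.89-fold. *Col7a1*, of anchoring fibrils, rose 2.91-fold and *Col15a1* fell 2.63-fold. Of 21 laminin and integrin genes 4 rose and 11 fell, with a median of −0.46 (4 and 7 with library totals). *Lamb3*, the beta chain of epithelial laminin, was at 53.5, 53.1, 48.5 and 47.0 CPM in KI and 182, 189 and 213 CPM in WT, and *Itgb4*, part of its hemidesmosome receptor, fell 5.62-fold, while *Lamb1* rose 6.19-fold from 0.909 ± 0.172 CPM. *Itga3* rose and *Itgav* fell (log2 0.58 and −0.46), the latter not without KI 5, KI 6 or WT 7 (−0.44 to −0.42) or with library totals (−0.15). The 31 TGF-beta pathway genes had 6 calls each way (9 higher and 3 lower with library totals), with 4 higher without KI 6 or WT 5-6 and 10 without WT 8. *Ltbp1*, which stores latent TGF-beta in the matrix, rose 5.64-fold, and *Id1*, a target of BMP signalling, and *Bmp4*, a ligand of it, fell 2.68- and 2.24-fold. *Cav1*, caveolin 1, fell 1.70-fold.

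**Figure D3:**
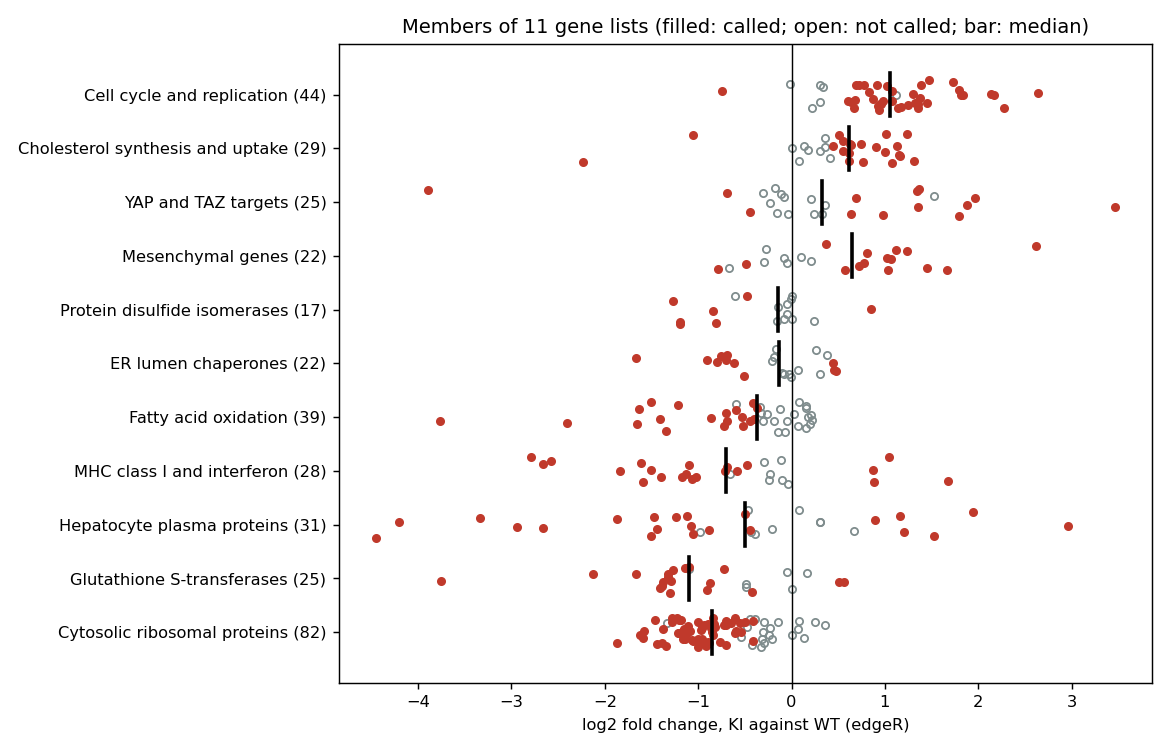
Log2 fold change (KI against WT, edgeR) of each tested member of 11 gene lists, with the number tested in parentheses; filled points were called at an adjusted p under 0.05, open points were not, and black bars are medians. Cell cycle members lie almost wholly to the right, ribosomal proteins and glutathione S-transferases mainly to the left, and the plasma protein, interferon and YAP lists spread on both sides of 0.

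Genes of hepatocyte products were lower in part. Of 31 tested plasma protein genes 16 (51.6%) fell and 6 (19.4%) rose, with a median of −0.50 (11 and 7 with library totals). *Hp*, haptoglobin, was at 69.8, 82.5, 69.6 and 77.6 CPM in KI and 929.9, 694 and 647 CPM in WT, 10.1-fold lower. *Alb*, albumin, was at 249.6, 246, 287 and 151 CPM and 693, 411 and 352 CPM, and fell 2.08-fold (edgeR adjusted p = 0.00437), and *Ttr*, transthyretin, did not pass (log2 −0.47), though it did without KI 7 or WT 7 (−0.58 and −0.65), with DESeq2 (−0.49) and with all 11 libraries in 1 fit (−0.47). *Trf*, transferrin, *C3*, the central complement component, and *Cfb*, its partner in the alternative pathway, fell 2.11-, 1.84- and 1.36-fold. The call of *Cfb* was kept only when WT 8 was the library left out, and its log2 value was −0.49 to −0.33 in the others. It was also lost without the filter on low counts (−0.43), and with library totals both *Cfb* and *C3* lost theirs (−0.10 and −0.59). *Fgb*, a fibrinogen chain, fell 7.65-fold at a low level. The members that rose included *Afp*, alpha-fetoprotein, 3.82-fold at a low level, and *Apob*, of secreted lipoproteins, 2.32-fold, both named after their values were seen.

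Of 12 tested serpin A genes, 6 fell and 1 rose, with a median of −2.02 (6 and 2 with library totals). *Serpina3g* was at 45.3, 45.7, 43.1 and 55.5 CPM in KI and 264, 239.9 and 178 CPM in WT, and *Serpina3i* and *Serpina3f* fell 3.98- and 4.13-fold. The *Serpina3* genes are near-identical copies in 1 cluster, so how reads were divided between them is uncertain. *Serpina7*, thyroxine-binding globulin, which lies apart on the X chromosome, fell 4.72-fold.

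Among 30 acute phase and inflammation genes 11 fell and 4 rose with TMM, while 7 fell and 10 rose with library totals. *Saa3*, an acute phase serum amyloid A, was at 475, 564, 571 and 675 CPM in KI and 5649, 4659 and 3268 CPM in WT, 7.92-fold lower (edgeR adjusted p = 8.4e-07). *Saa1*, which may share reads with *Saa2*, fell 19.5-fold. *Lcn2*, the siderophore-binding lipocalin 2, was at 987 ± 41.2 CPM in KI against 3203 ± 654 CPM in WT. *Cxcl5*, a neutrophil chemokine, was at 1357 ± 101 CPM in KI and 1445 ± 220.4 CPM in WT and *Ccl7* rose. Of 28 MHC class I and interferon genes 17 (60.7%) fell and 4 rose, with a median of −0.70 (12 and 4 with library totals). *H2-K1* and *H2-D1*, the classical class I heavy chains, fell (log2 −0.48 and −0.58), and *H2-T23*, a nonclassical one, 3.57-fold. The calls of *H2-K1* and *H2-D1* were lost without KI 5, 6 or 7 or WT 5-6 or 7, at −0.50 to −0.34 and −0.59 to −0.44, and with library totals, at −0.13 and −0.24. *Oas1a* and *Ifit1*, interferon-induced antiviral genes, fell 6.91- and 6.33-fold at low levels, and *B2m*, the light chain, did not pass (log2 −0.10).

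Of 27 liver transcription factors 8 fell and 2 rose (5 and 4 with library totals). *Nr5a2*, the liver receptor homolog LRH-1, was at 1.09, 0.629, 0.572 and 0.602 CPM in KI and 7.03, 7.29 and 9.45 CPM in WT, and *Nr1i2*, the xenobiotic sensor PXR, fell 6.45-fold and *Foxa3* 2.33-fold. *Hnf4a*, a master regulator of hepatocytes, was at 126 ± 7.58 CPM in KI and 101 ± 25.3 CPM in WT, and *Nr1h4*, the bile acid receptor FXR, and *Esrra* did not pass either (log2 −0.32 and −0.36). Without WT 8, *Hnf4a* was called higher (log2 0.52) and *Nr1h4* and *Esrra* lower (−0.47 and −0.44), and *Esrra* also without KI 8 (−0.45). *Hnf4a* was called higher with library totals too (0.61), and *Esrra* lower with DESeq2 (−0.39), without newly assembled entries (−0.38), with all 11 libraries and with the length trend removed (−0.36 each). Of 30 genes of drug and aldehyde metabolism 18 (60.0%) fell and 1 rose, with a median of −0.58 (13 and 2 with library totals). *Aldh1a1*, a retinal dehydrogenase, was at 395, 395, 381 and 436 CPM in KI and 1047, 996 and 719 CPM in WT. *Ugt2b34*, a glucuronosyltransferase, *Adh1*, an alcohol dehydrogenase, and *Akr1b7*, an aldose reductase relative, fell 7.45-, 4.62- and 2.48-fold. The enzyme that rose, *Cyp51*, belongs to the cholesterol pathway. *Ass1*, a marker of hepatocyte urea metabolism, fell 2.74-fold.

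Glutathione genes divided by class. Of 25 glutathione S-transferases, which couple glutathione to electrophiles, 17 (68.0%) fell and 2 (8.00%) rose, with a median of −1.10, and library totals gave 15 and 3. *Gsta3* was at 963, 1018, 939.5 and 1051 CPM in KI and 2797, 2147 and 1601 CPM in WT, 2.20-fold lower. The microsomal *Mgst1* was at 220.2, 228, 209.9 and 291 CPM and 922, 853 and 495 CPM, 3.19-fold lower, and *Gstt2* of the theta class fell 4.36-fold, whereas *Gsto1* of the omega class did not pass (log2 −0.05). Several alpha, mu and pi genes are close copies, so their reads may be divided wrongly. Genes that make and recycle glutathione showed no shared direction, with 5 of 21 higher and 7 lower, or 8 and 4 with library totals. *Gclc*, the rate-limiting enzyme of synthesis, and *Gpx4*, which reduces lipid peroxides, did not pass (log2 0.17 and −0.53), though *Gpx4* was called lower without KI 8 or WT 8 (−0.64 and −0.75) and in 5 other alternatives (−0.56 to −0.52), and *Gclc* higher with library totals (0.49). *Gpx3*, at 4.65, 5.72, 3.76 and 4.59 CPM in KI and 88.2, 75.1 and 91.0 CPM in WT, *Glrx*, glutaredoxin 1 (2.35-fold), and *Ggt6* (3.80-fold) fell, and *Ggt7* rose 2.42-fold.

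Of 23 peroxiredoxin and thioredoxin genes 9 fell and 4 rose (6 and 4 with library totals), and none rose without WT 7. Besides *Prdx4*, *Prxl2a*, a peroxiredoxin-like gene, fell 5.45-fold and *Txnip*, the inhibitor of thioredoxin that answers to glucose, fell from 284 ± 33.3 to 68.5 ± 10.4 CPM. *Prdx1* did not pass (log2 −0.20, and −0.43, called, without WT 8), *Prdx5* fell 1.92-fold, and *Prdx2* rose 1.52-fold with KI 8 inside the range of WT. That call was lost without KI 5, 6 or 7 or WT 7 (log2 0.40 to 0.56). The 25 NRF2 genes had 6 rises and 9 falls with TMM and 11 and 5 with library totals. *Hmox1*, haem oxygenase, and *Abcc4*, an exporter, fell 1.86- and 1.84-fold, the latter not with library totals (log2 −0.58). Of 16 iron genes 7 (43.8%) rose and 8 (50%) fell (8 and 8 with library totals). The rises reached 1.08 on the log2 scale and are not named here. *Fth1*, at 2746 ± 151 CPM in KI and 4849.5 ± 506 CPM in WT, fell while *Ftl1*, the light chain, did not pass (log2 0.22, but 0.53 and called with library totals and 0.47 with the length trend removed), and *Tfr2*, *Hfe* and *Slc39a14*, which sense or take up iron in hepatocytes, fell 3.24-, 2.42- and 2.49-fold.

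Cytosolic ribosomal protein genes fell together. None of 82 rose and 61 (74.4%) fell, with a median of −0.85, and library totals gave 3 and 45 with a median of −0.50. *Rpl7* was at 1435, 1479, 1173 and 1677 CPM in KI and 5185, 4994 and 2814 CPM in WT, and *Rps24*, of the small subunit, fell 3.07-fold. *Rpl13a* and *Rpsa* fell 1.80- and 1.47-fold. Scaled over all 11 libraries, the mean of *Rpl7* was 1595 CPM in KO, 1520 in KI and 4559 in WT. *Rpl17* was at 63.3, 66.2, 52.0 and 268 CPM in KI, where KI 8 stood far above the other 3, and at 367, 455 and 412 CPM in WT. Of the fits without 1 library, only that without KI 8 kept its call (log2 −2.76) and only that without WT 8 kept that of *Rpsa* (−0.74), while that of *Rpl13a* was lost without WT 7 (−0.74). With library totals *Rpl17* and *Rpsa* lost theirs (−1.57 and −0.20), and *Rpl17* also without the filter on low counts (−1.86). Many of these genes have processed pseudogenes, so reads shared with such copies are uncertain. Of 76 nuclear genes of oxidative phosphorylation, 26 (34.2%) fell and 2 rose, with a median of −0.33, but library totals gave 10 and 13 with a median of 0.03. *Ndufa6* and *Ndufs4* of complex I and *Uqcrh* of complex III fell 2.25-, 2.11- and 2.15-fold, and *Atp5b* and *Atp5a1* of ATP synthase did not pass (log2 0.22 and −0.01), though *Atp5b* was called higher with library totals (0.54). No entry was found under the 26 names searched for mitochondrially encoded RNAs, so these could not be analysed here.

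Both lists consist of short genes, and transcript length moved with the comparison. Among 502 genes whose longest transcript (GENCODE, GRCm38) is at most 1000 bases, the median log2 fold change was −0.37, with 9.96% called higher and 35.5% lower. Among 1729 genes with a transcript over 6000 bases it was 0.12, with 25.3% higher and 14.6% lower. The WT libraries also differed among themselves in this respect. The short genes deviated from their WT mean by 0.27 in WT 5-6, 0.05 in WT 7 and −0.31 in WT 8 (median log2), and from their KI mean by −0.14 to 0.10 in the KI libraries. Without WT 8, 66 ribosomal protein genes and 41 genes of oxidative phosphorylation fell, and without WT 5-6 the numbers were 49 and 17. With the trend of each library over length removed, an alternative added after the data were seen, 52 ribosomal protein genes fell and 1 rose (median −0.58), 16 genes of oxidative phosphorylation fell and 9 rose (median −0.14), and cell cycle genes gave 36 rises and 1 fall. What part length has in these lists was not tested further.

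**Figure D4:**
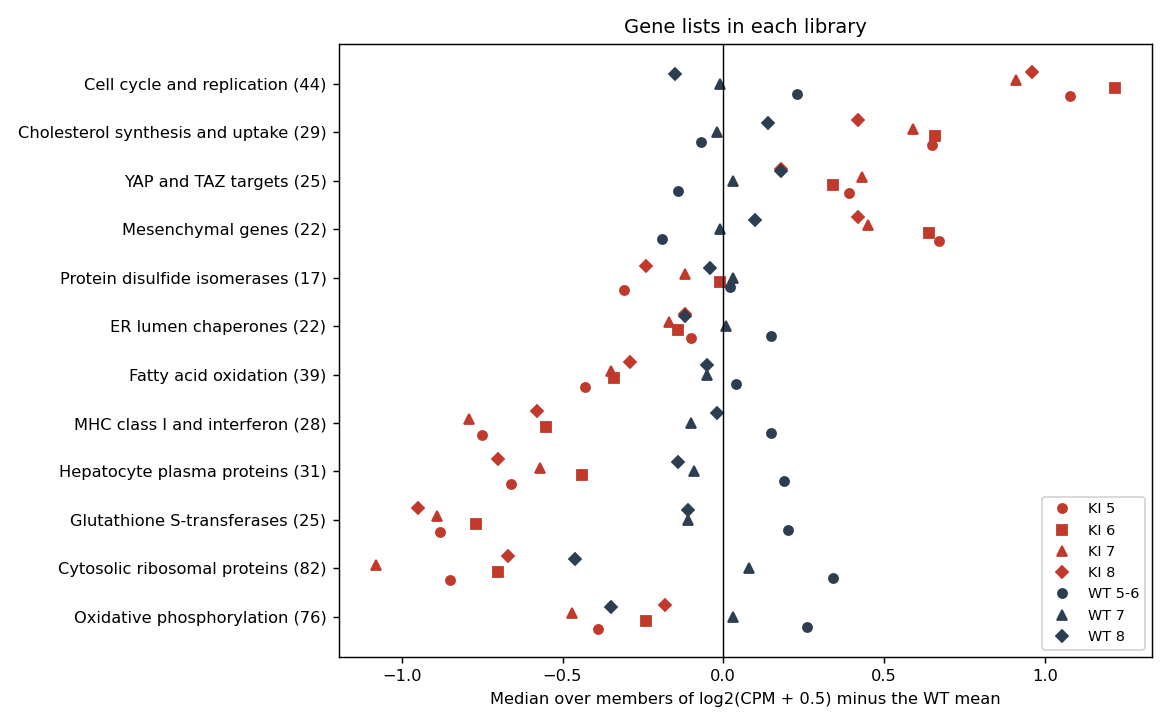
Median over the tested members of 12 gene lists of log2(CPM + 0.5) minus the WT mean of each gene, in each of the 4 KI and 3 WT libraries (symbols). The cell cycle medians are 0.91 to 1.22 in KI, the ribosomal protein medians are −1.08 to −0.67 in KI and 0.34, 0.08 and −0.46 in WT 5-6, 7 and 8, and for oxidative phosphorylation WT 8 (−0.35) lies among the KI libraries (−0.47 to −0.18). With library totals the oxidative phosphorylation median changes sign.

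Of 31 glycolysis genes 12 (38.7%) fell and 2 rose, with a median of −0.24 (7 and 5 with library totals, median 0.10), and 5 rose without WT 8. *Slc2a2*, the glucose transporter of hepatocytes, was at 7.88, 10.6, 9.85 and 8.89 CPM in KI and 31.0, 35.0 and 41.4 CPM in WT, *Pfkp*, a phosphofructokinase, fell 2.99-fold, and *Pdk4*, which blocks the entry of pyruvate into mitochondria, 3.52-fold. *Pkm* and *Ldha* did not pass (log2 −0.20 and −0.06). Of 25 hypoxia-response genes 10 (40.0%) fell and 2 rose (5 and 3 with library totals). *Bnip3* and *Bnip3l*, receptors for removal of mitochondria, fell 3.76- and 3.23-fold, *Bnip3* from 2090.2, 2147 and 1151 CPM in WT to 489.9, 429, 424 and 566 CPM in KI, and *Ndrg1* fell 1.55-fold, a call lost with library totals (log2 −0.31). Of 26 p53 targets 7 fell and 4 rose with TMM and 4 fell and 8 rose with library totals. Without WT 7, 4 fell, and without WT 8, 10. *Fas*, the death receptor, was at 13.0, 13.1, 13.9 and 13.4 CPM in KI and 78.4, 70.0 and 44.4 CPM in WT, and *Trp53inp1* and *Ccng1* fell 2.51- and 1.98-fold, while *Bax* did not pass (log2 −0.14).

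A small number of genes were at or near 0 in 1 group only. At most 3 counts in every KI library and at least 30 in every WT library were found for 11 annotated genes, and the reverse for 7. These genes were picked by their counts, so no test is given. At 0 in all KI libraries were *Chdh*, choline dehydrogenase, with 78, 96 and 142 counts in WT, *Ttpa*, the liver's vitamin E transfer protein, with 117, 109 and 80, *Trpv4*, a calcium channel, with 52, 88 and 69, and *Bhlhb9*, with 84, 110 and 43. Set against the floor of 3 counts per library, these were at least 49.1-, 49.4-, 33.1- and 38.6-fold lower in KI. At 0 in all WT libraries were *Erich4*, *Lce1g*, *Tspyl5* and *Myh6*, at least 11.1-, 12.0-, 18.0- and 31.6-fold higher in KI by the same floor. *Myh6*, a myosin heavy chain of heart muscle, had 58, 58 and 67 counts in KI 5, 6 and 7 and 339 in KI 8, so its bound rests largely on KI 8.

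The calls were not spread evenly over the chromosomes. Of 414 tested genes on chromosome 14, 33 (7.97%) rose and 179 (43.2%) fell, with a median of −0.38, and on chromosome 19 the shares were 11.1% and 32.1% with a median of −0.21. On chromosome 3, by contrast, 38.5% of 597 genes rose and 13.1% fell, with a median of 0.27, and chromosomes 9, 15, 8 and 4 had medians of 0.21, 0.22, 0.20 and 0.16. Each KI library showed it alike. The median of chromosome 14 relative to the WT mean was −0.34, −0.36, −0.35 and −0.37 in KI 5 to 8 and −0.03, 0.03 and 0.02 in the WT libraries, and that of chromosome 3 was 0.26 to 0.33 in KI and −0.05 to 0.03 in WT. With library totals chromosome 14 had the lowest median still, at −0.05, when the median of all genes was 0.30. *Ero1a*, *Prxl2a*, *Acox2*, *Bnip3l*, *Tpt1*, *Rps24* and *Sftpd* are on chromosome 14, and *Ccn1*, *F3*, *Phgdh*, *Elovl6* and *Cgn* on chromosome 3, as are *Txnip*, *Fabp5*, *Slc2a2* and *Adh1*, which fell. Gene names were placed with RefSeq, and DNA was not measured in these libraries.

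**Figure D5:**
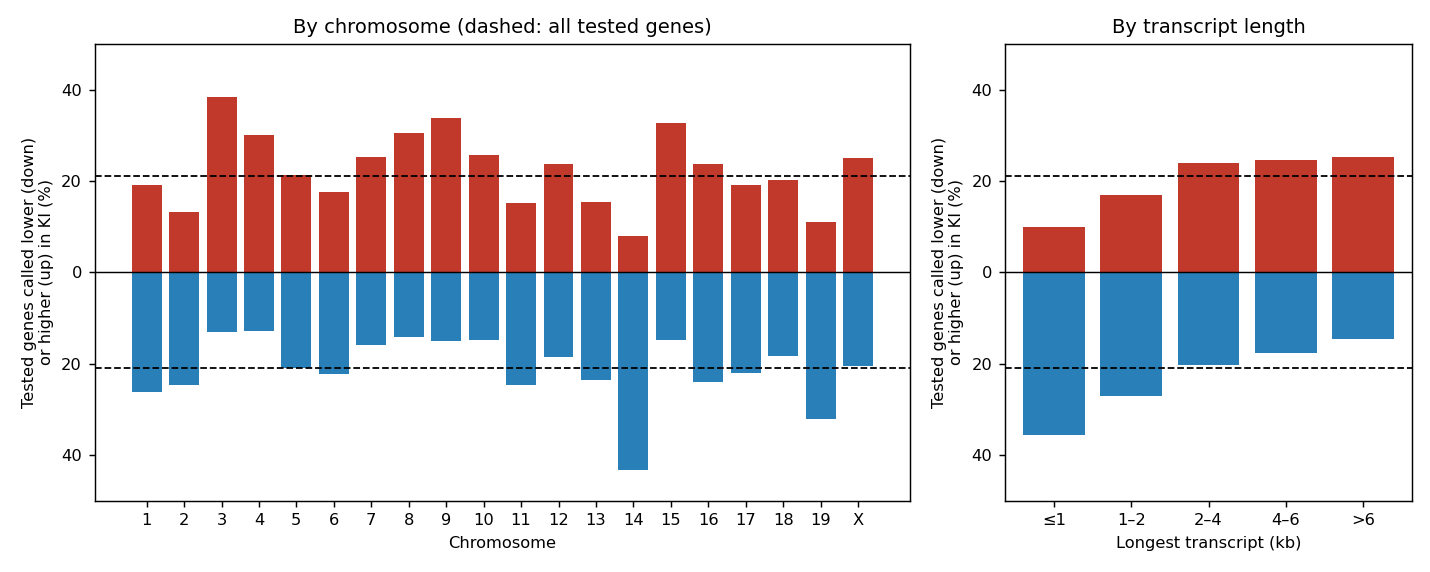
Share of tested genes called higher (up) or lower (down) in KI by chromosome (left) and by the length of the longest transcript in kb (right), in percent; dashed lines are the shares of all tested genes, 21.2% and 21.0%. Chromosome 14 has 43.2% of its genes lower and chromosome 3 has 38.5% higher, and the share called lower falls from 35.5% in the shortest class of transcripts to 14.6% in the longest.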

How the data were processed

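RNA-seq libraries of TXNDC5 knock-in (KI, n = 4) and wild-type (WT, n = 3) AML12 cells were grouped by their genotype labels. The authors cleaned the reads, mapped them to the mouse genome and deposited whole-number counts per gene. The submitters' processing notes name HISAT2, TopHat2, Bowtie2 and StringTie, without roles or versions. The genome build, the counting tool and its strand setting are not given in the sources used here, so overlapping and antisense genes cannot be told apart. The table also holds 11 columns of FPKM values, whose decimals are lost, and columns of the authors' own comparisons (fold changes and p-values). None of these was used.

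Of 26472 lines, 10 with broken annotation were left out, and the 26462 used hold 23502 annotated and 2960 newly assembled entries. Entries of 1131 repeated names were summed, which gave 24849 genes. Of 18293 genes with a count, 13534 passed edgeR's filterByExpr. KI was tested against WT with edgeR 4.0.16 in R 4.3.3 by the robust quasi-likelihood test, with TMM factors of 1.08 to 1.17 in KI and 0.793 to 1.00 in WT, a prior count of 2 and Benjamini-Hochberg adjustment over all genes tested, called at 0.05. The test was checked on simulated counts of 13411 genes, all given the same spread. Of these, 97 were changed by 1 and 100 by 2 on the log2 scale. The test found 73.2% and 99.0% of them, with 11 false calls. In the data far more genes were called (42.3%) and the spread may differ between genes, so these shares may not hold there. No KI or WT libraries were alike within sampling noise. Tables and figures were made with Python 3.11.15, pandas 2.3.3 and matplotlib 3.10.9.

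The members and gene lists were chosen with earlier results of these data known. Named genes were the 12 largest rises and 12 largest falls with a mean log2 CPM of at least 2 and no overlap of the groups, the 10 such calls with the highest levels, and from each list the 3 highest levels and the 3 largest calls with a mean log2 CPM of at least 1. Some genes that this rule selects are not reported here. A further 19 genes were named outside the rule. Alternatives were DESeq2 size factors, library totals, DESeq2 1.42.0, limma 3.58.1 on log2(CPM + 1), no filter, all 11 libraries in 1 fit, each entry on its own, newly assembled entries left out, each library left out, a replicate block and, added after the data were seen, removal of each library's length trend. The floor of 3 counts covers counting error only.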

Additional observations from a re-analysis of the deposited data

Results flagged for a closer look

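In 19 of 196 named genes, 1 KI library stood apart from the other 3, with a gap to the nearest of them that, divided by the range of the group, was above Dixon's 95% critical value for 4 samples. Chance flags about 1 group in 20, or 9.8 of 196. WT has 3 libraries and was not examined in this way. KI 8 was the library that stood apart in 10 of the 19, KI 7 in 4, KI 6 in 3 and KI 5 in 2.

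KI 8 was above the other KI libraries for *Myh6* (0.982 of the range), *Rpl17* (0.934), *Vgll3* (0.925) and *Saa1* (0.876). It was below them for *B2m* (0.927), *Pdia3* (0.912), *Prdx2* (0.899), *Eno1* (0.879), *Gclc* (0.879) and *Acsl5* (0.863). KI 7 was above the others for *Txnip* (0.911) and *Lrg1* (0.853) and below them for *E2f1* (0.87) and *Erich4* (0.86). KI 6 was above the others for *Foxa3* (0.977), *Col7a1* (0.935) and *Cd14* (0.899), and KI 5 for *Nr5a2* (0.889) and *Tnc* (0.887).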

How the results depend on the processing

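The number of genes called was 5722 and lay between 5423 and 6394 with the other scalings, tests, filters and entries, was 5656 with the length trend removed, and 4276 (without WT 7) to 6969 (without WT 8) when 1 library was left out. No gene called both in the main test and in an alternative had opposite signs (the fit of single entries was not compared by gene). Library totals in place of TMM moved the division of the calls to 4620 higher and 1438 lower, with the median gene at 0.30 in place of −0.02. Deviations from the group means correlated at −0.034, 0.062, −0.069 and −0.22 between KI 5, 6, 7 and 8 and the WT library of that number. Between libraries of different numbers the correlations ran from −0.15 to 0.19. Whether a shared number stands for a shared culture or batch cannot be told from so few libraries. The fit with a replicate block gave 4891 calls, 2523 higher and 2368 lower. Of the named genes *Cfb* (−0.45), *H2-K1* (−0.49), *Itgav* (−0.41), *Prdx2* (0.54) and *Tpi1* (−0.53) lost their call with that block.

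Of 200 named genes, 22 lost a call and 19 gained one under at least 1 alternative, and 16 changed sign, none of which was called with TMM. With library totals the sign changed for *Acsl4* (0.02), *Atp5a1* (0.30), *B2m* (0.26), *Bax* (0.20), *Cxcl5* (0.26), *Gsto1* (0.28), *Ldha* (0.28), *Nr1h4* (0.03), *Pkm* (0.13), *Prdx1* (0.16), *Qsox1* (0.00), *Setd5* (0.06) and *Vim* (0.26). With the length trend removed it changed for *B2m* (0.25), *Bax* (0.10), *Gsto1* (0.16), *Ldha* (0.02) and *Pdia3* (−0.01). *Pdia3* was at −0.02 with DESeq2 size factors, with DESeq2 and without newly assembled entries, and at −0.00 with the replicate block. With 1 library left out the values ran from −0.08 to 0.08 for *Atp5a1*, −0.22 to 0.15 for *B2m*, −0.20 to 0.03 for *Cxcl5*, −0.47 to 0.01 for *Fn1*, −0.11 to 0.02 for *Ldha*, −0.04 to 0.07 for *Pdia3*, −0.10 to 0.25 for *Plin2* and −0.12 to 0.07 for *Vim*. The cause of these changes was not tested. Counts of list members moved by over 1.5 times in 124 comparisons with an alternative and by less in 996. With 3 WT libraries, 1 library decides several calls, and differences in genes at low counts may not be detectable at this depth.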
